A study of Mus musculus with 12 samples.

Results

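The fourth base of a single homeodomain site, the T that closes TAAT in the sequence TAATCC, was changed to each other base in 100 mouse DNA elements, and the activity of each changed element was compared with that of its unmodified parent. The elements come from a series in which a window of 13 bases around 1 such site (a monomer site, in contrast to paired sites) was changed base by base. Each window was read on the strand whose places 2 to 7 match TAATCC best, and the elements changed at place 5 were kept, without use of any measured value. This gave 300 changed elements, 100 each with A, C or G as the new base, of 13717 changed elements and 14987 elements in all. Of the 100 windows, 97 read TAATCC at places 2 to 7, 2 read TAATCT and 1 read another sequence, and all had T at place 5. Read this way, 44 windows lay on the forward and 56 on the reverse strand of mm9, the genome build of the element names. The changed base stood between positions 9 and 86 of its element of 100 bp, with a median of 53.

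The assay was CRE-seq, which reads the activity of many cloned DNA elements from short barcodes in a reporter transcript. In the plasmids an element stands before the promoter of the rhodopsin gene (pRho) or that of the Crx gene (pCrx), and the promoter drives the red fluorescent protein DsRed. Retinas of wild-type CD1 pups at postnatal day 0 received 30 µg of either library and, in all groups, 30 µg of a CAG-GFP plasmid, and stayed in explant culture for 8 days. A replicate was 5 pooled retinas, and each promoter had 3 replicates with a DNA and a cDNA library each, 12 libraries in all. The retinas were whole, so several cell types could take up the plasmids, and only barcodes were sequenced, so no marker gene could be read to check which cells carried the reporter. Library totals ran from 24726849 to 36500857 reads. All 300 changed elements had at least 10 reads in every DNA library; the lowest count of any of them was 43 in a DNA and 58 in a cDNA library.

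TAATCC is the preferred site of the photoreceptor homeodomain factor Crx and its relative Otx2, both of the K50 class, named for the lysine at position 50 of the homeodomain. A homeodomain contacts the TAAT core from the major and the minor groove, and residue 50 helps to choose the bases that follow the core. Crx activates rhodopsin and many other photoreceptor genes, and its own promoter is active in photoreceptors.

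Changing the fourth base turns TAATCC into TAAACC (new base A), into TAACCC (new base C) or into TAAGCC (new base G); the last of these is itself a known relative of the K50 site. The first set of sequences shows all 4 versions of the window with the largest fall on pRho, on the reverse strand of chr2:113883327-113883426, with the 6 core bases in capitals.
unmodified: agtgactgcTAATCCcccagtgcagggga
new base A: agtgactgcTAAACCcccagtgcagggga
new base C: agtgactgcTAACCCcccagtgcagggga
new base G: agtgactgcTAAGCCcccagtgcagggga
The second set shows the unmodified windows with the other largest falls, which share the core and differ in the bases around it. All are on the reverse strand except chr14:18585162-18585261, chr11:120353660-120353759 and chr2:25811052-25811151.
chr16:64873307-64873406: tagcccgtgTAATCCtctcagagcctagc
chr14:18585162-18585261: aaaggccttTAATCCtcccagtggagtgt
chr11:120353660-120353759: cttacctgcTAATCCctccgcaaccacag
chr8:12768382-12768481: tgctgtcccTAATCCcctgctgaaaatag
chr19:41732010-41732109: gggccccacTAATCCcctcagaggcagtg
chr12:87772778-87772877: tcccttctcTAATCCcctgtgtcacacat
chr2:25811052-25811151: gctccagccTAATCCtctactgacctg
chr7:148783037-148783136: ccatcaagcTAATCCtctaaacaagctta
chr15:103164816-103164915: agattccccTAATCCctgctcccccgccc
The third set shows 6 windows, those with the largest rises, with the largest promoter differences or with the largest differences between new bases on pRho. All are on the reverse strand except chr6:31242227-31242326.
chr7:73255703-73255802: tccctttgtTAATCCtgaacatgatcgct
chr15:66793972-66794071: gccctcctcTAATCCctgcagctggccat
chr13:104839111-104839210: ttaagaggaTAATCCtttttgggccagca
chr13:49314178-49314277: ataccccacTAATCCcctaatccattagt
chr2:25833237-25833336: tctgtgagcTAATCCtttggccctcagaa
chr6:31242227-31242326: tgagtaggaTAATCCtgtctttgccttct
In the window at chr13:49314178-49314277 a second TAATCC follows the core closely.

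Activity is the log2 ratio of cDNA to DNA reads, with 0 at the library's typical element, and an effect is the log2 activity of a changed element minus that of its parent. Effects were tested with edgeR's quasi-likelihood test over 3 replicates, with Benjamini-Hochberg adjustment over all 13717 changed elements, and "fell" and "rose" are used for an adjusted p below 0.05. The replicates share the same 6 or 7 barcodes of an element, so these errors leave out differences between barcodes; a second fit took each barcode as a unit. The median SE of an effect was 0.11 on pRho and 0.15 on pCrx in the first fit, and 0.19 and 0.23 with barcodes as units. The parents ranged in activity from -2.68 to 2.10 on pRho, with 58 above and 33 below the typical element. On pCrx they ranged from -1.60 to 2.08, with 50 above and 35 below.

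About 1 in 2 changes of the fourth base lowered activity on either promoter. On pRho, 151 of 300 changes fell (50.3%) and 49 rose, where 43.7% of all changed elements fell and 16.3% rose. On pCrx, 153 fell (51%) and 28 rose, where 43.7% of all changed elements fell and 10.6% rose. The shares that fell were therefore slightly above, and the shares that rose close to, those of the whole library. The median effect was -0.25 on pRho and -0.37 on pCrx, beside -0.18 and -0.26 over all changed elements. With barcodes as units, 83 fell and 18 rose on pRho (24.7% and 5.83% of all changed elements), and 98 fell and 11 rose on pCrx (28.7% and 4.75%). Without replicate 1, 17 changes rose on pCrx. The 3 changes of a window share a parent, so their calls are not separate observations. At least 1 change fell in 67 windows on pRho and in 63 on pCrx, and at least 1 rose in 29 and 14. All 3 changes fell in 30 windows on pRho and in 36 on pCrx, and all 3 rose in 5 and 6.

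The 3 new bases did not act alike. On pRho, changes to A fell in 58 windows and rose in 12, changes to C fell in 49 and rose in 25, and changes to G fell in 44 and rose in 12. The mean effect over 100 windows was -0.26, -0.30 and -0.32 in the 3 pRho replicates for A, -0.14, -0.20 and -0.20 for C, and -0.16, -0.17 and -0.20 for G. Each mean was negative in every replicate, and A lay below both other bases in each. On pCrx, A fell in 54 windows and rose in 9, C fell in 58 and rose in 11, and G fell in 41 and rose in 8. The 3 pCrx replicates gave mean effects of -0.35, -0.40 and -0.39 for A, -0.42, -0.52 and -0.46 for C, and -0.28, -0.24 and -0.27 for G. Here C was the lowest and G the highest of the new bases in every replicate.

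As shares of the parent's activity, the mean effects on pRho corresponded to 81.6% left after a change to A, 88.4% after C and 88.5% after G. On pCrx the same means corresponded to 76.9% for A, 72.3% for C and 83.4% for G. The spread over windows was widest for C, with an SD of 0.72 on pRho and 0.75 on pCrx. For G it was narrowest, at 0.40 on both promoters, with A between them at 0.52 and 0.65. On pRho the effects of C ran from -1.94 to 2.03, those of A from -1.53 to 1.40 and those of G from -1.24 to 1.70. Falls of 2-fold or more occurred for 6 changes to A, 11 to C and 3 to G on pRho, and for 16, 21 and 3 on pCrx. The share of such falls over all changed elements was not counted, so these numbers compare the new bases only.

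New bases were also compared with each other in the same window, which does not use the parent. G lay above A in 35 windows and below it in 10 on pRho, where over all 1589 such pairs in the monomer and dimer windows 19.3% were higher and 22% lower. On pCrx, G lay above A in 25 windows and below it in 8, against 14.7% and 17.2% over all pairs. G lay above C in 32 windows and below it in 26 on pRho, against 19.1% and 25.9% of 1358 pairs, and above C in 30 and below it in 9 on pCrx, against 13.5% and 15.6%. The G against A counts and the pCrx counts of G against C thus leaned toward G, while over all places of the windows the lower calls were the more frequent ones. C lay above A in 30 windows and below it in 18 on pRho (23.8% and 19.7% of 1038 pairs), but above A in 4 and below it in 14 on pCrx (12.3% and 15.6%). Several of these counts moved when a replicate was left out. On pRho, G lay above A in 23 windows without replicate 1 and below it in 6 without replicate 2. On pCrx, G lay below A in 4 without replicate 1 and in 5 without replicate 3, and below C in 4 without replicate 3. C lay below A on pCrx in 7 windows without any 1 of the replicates, and above it in 2 without replicate 3. With barcodes as units all of these counts were lower, and on pCrx C lay above A in 0 windows and below it in 3.

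The mean difference of G minus A was 0.12 ± 0.02 on pRho and 0.12 ± 0.04 on pCrx (SD, n = 3 replicates; exact two-sided sign-flip p = 0.25 for each, the smallest that 3 replicates allow). G minus C averaged 0.00 ± 0.02 on pRho (exact p = 1) and 0.21 ± 0.07 on pCrx (exact p = 0.25). C minus A averaged 0.11 ± 0.01 on pRho and -0.09 ± 0.03 on pCrx, so the sign of this difference was opposite on the promoters in all 3 replicates of each. The promoter difference of C minus A was -0.20 (exact two-sided permutation p = 0.1, the smallest that 3 against 3 replicates allow), and that of G minus C was 0.20 (exact permutation p = 0.1). Tested per window, C minus A was lower on pCrx in 19 windows and higher in 4, against 11.8% and 8.57% of the 1038 pairs. This last test was added after the opposite calls had been seen. It gave 12 lower calls without replicate 2, and 11 lower and 2 higher calls without replicate 3. With barcodes as units it gave 4 lower and 0 higher calls.

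The largest falls on pRho came from windows with and without a strong parent. At chr2:113883327-113883426, shown in all 4 versions above, the parent had a pRho activity of 1.21, 1.31 and 1.16 in the 3 replicates. The change to C (A54G in the element as written, with positions counted from 1 at its first forward-strand base) had effects of -1.49, -2.24 and -2.12. Its fitted effect was -1.94 ± 0.12 (SE; edgeR adjusted p = 2.24e-19), or 3.83-fold lower, and -2.00 ± 0.18 with barcodes as units. The change to A (A54T) left 35.7% of the activity, with effects of -1.35, -1.57 and -1.54. The change to G (A54C) left 48.9%, with effects of -0.98, -1.18 and -0.93, so every replicate of G lay above every replicate of A and of C. In this window G lay 0.90 ± 0.14 above C (SE, edgeR adjusted p = 3.02e-06) and 0.45 ± 0.11 above A (SE, edgeR adjusted p = 0.00135). With barcodes as units, G minus A was 0.47 ± 0.23 and did not pass (SE, adjusted p = 0.247 with limma). On pCrx, G minus A was -0.09 ± 0.13 (SE) and did not pass the test.

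The window at chr16:64873307-64873406, the only one with G at place 1, had a parent slightly below the typical element on pRho, at -0.37 ± 0.07 (SE). The change to A (A49T) had effects of -1.69, -1.34 and -1.55 and a fitted effect of -1.53 ± 0.10 (SE; edgeR adjusted p = 2.33e-18). C (A49G) followed at -1.40 ± 0.10 and G (A49C) at -1.24 ± 0.11 (SE). On pCrx the same changes gave -0.03 ± 0.13, -0.33 ± 0.13 and -0.24 ± 0.15 (SE), of which only C passed the test (edgeR adjusted p = 0.0331); it did not pass without replicate 2, without replicate 3, with barcodes as units or on the authors' deposited values. All 3 changes thus took the element to pRho activities between -1.90 and -1.61, and the pCrx effects were smaller by 0.99 to 1.49, each a promoter difference that passed the test.

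At chr14:18585162-18585261 the change to A (T39A) had pRho effects of -1.24, -1.78 and -1.43, with a fitted effect of -1.48 ± 0.11 (SE; edgeR adjusted p = 8.47e-18). G in the same place gave -0.79 ± 0.10 (SE), which left 57.9% of the activity against 35.8% for A. G lay 0.69 ± 0.11 above A on pRho (SE; edgeR adjusted p = 2.58e-06), and on pCrx the values were -0.52 ± 0.14 for A and -0.70 ± 0.12 for G (SE). At chr11:120353660-120353759 all 3 changes fell on pRho, by 1.30 for A, 1.16 for C and 1.09 for G (T53G), and none passed the test on pCrx, where they gave 0.10 ± 0.14, 0.05 ± 0.14 and -0.16 ± 0.16 (SE). The parent there lay at 0.19 on pRho and -0.54 on pCrx.

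Of the 6 largest falls on pCrx, 5 were changes to C, and all lay in windows with active parents. Since the parent is subtracted in each effect, large falls and high parent readings go together in part by construction. At chr19:41732010-41732109, with a parent at 1.63 ± 0.09 on pCrx (SE), the change to C (A72G) had effects of -2.01, -2.25 and -2.03. The fitted effect was -2.10 ± 0.12 (SE; edgeR adjusted p = 1.26e-13), a 4.28-fold fall to 23.3% of the parent. A left 33.8% and G (A72C) 43.0% of the activity on pCrx. On pRho the 3 changes gave -1.14 ± 0.09 for C, -0.69 ± 0.09 for A and -0.47 ± 0.09 for G (SE). The fitted values thus had the same order and the falls were smaller. G minus A did not pass the test on either promoter (edgeR adjusted p = 0.087 on pCrx and 0.0593 on pRho). With barcodes as units it was -0.05 ± 0.32 on pCrx (SE), so the order of G and A there was not settled.

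The same order of G over A over C was seen at chr12:87772778-87772877. There C (A53G) gave -1.81, -2.14 and -2.09 on pCrx, A (A53T) gave -1.22, -1.0 and -1.11, and G (A53C) gave -0.37, -0.54 and -0.42. The replicates of the 3 bases did not overlap, and C kept 24.6%, A 46.1% and G 72.8% of the parent's activity. G lay 1.56 ± 0.15 above C (SE; edgeR adjusted p = 9.26e-09) and 1.71 ± 0.19 with barcodes as units. At chr7:148783037-148783136, C (A45G) gave -1.44, -2.07 and -2.04 on pCrx, A (A45T) -0.65, -1.24 and -1.20, and G (A45C) -0.06, -0.43 and -0.29. C and A fell to 28.0% and 49.3% of the parent, while G, at 83.9%, did not pass the test (edgeR adjusted p = 0.0605), though it passed in the fit with the replicate number as a block. Here G exceeded C by 1.58 ± 0.12 (SE; edgeR adjusted p = 7.19e-11), the largest difference between new bases on pCrx. On pRho the same gap was 0.29 ± 0.08 (SE), smaller by 1.29 ± 0.15 (edgeR adjusted p = 2.02e-08).

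Loss without a gap between A and C was seen at chr15:103164816-103164915, whose parent had the highest pRho activity of the 100, 2.10. On pCrx A (A46T) gave -1.74, -2.24 and -1.27 and C (A46G) gave -1.55, -2.48 and -1.19, whereas G (A46C) gave -0.13, -0.46 and -0.19 and did not pass the test. G lay 1.5 ± 0.26 above A (SE; edgeR adjusted p = 4.87e-05). At chr8:12768382-12768481, with parents at 1.54 on pRho and 1.90 on pCrx, C (A74G) fell on both promoters, to 36.5% and 26.5%. A (A74T) left 52.8% and 31.4%, and G left 76.4% and 55.3%. At chr2:25811052-25811151 the pCrx effects were -1.91 ± 0.13 for C (T86C), -1.60 ± 0.13 for A and -1.12 ± 0.12 for G (T86G; SE), and on pRho the same changes gave -0.66 ± 0.10, -0.41 ± 0.10 and -0.16 ± 0.10 (SE). In each of these windows G was the mildest change on pCrx.

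Gains were fewer, and the largest lay in windows whose parents were weak on the promoter concerned. Since the parent is subtracted in each effect, large gains and low parent readings go together in part by construction. At chr7:73255703-73255802 the parent had pRho activities of -1.51, -1.29 and -1.52, and the change to C (A56G) raised them by 1.96, 1.86 and 2.25. The fitted gain was 2.03 ± 0.13 (SE; edgeR adjusted p = 2.23e-19), or 4.08-fold, to an activity of 0.58. A (A56T) gave 0.17 ± 0.16 and G (A56C) -0.09 ± 0.13 (SE), and neither passed the test. On pCrx, where the parent was at 0.53, C gave -0.07 ± 0.13 and A -0.72 ± 0.16 (SE), of which A passed. G minus C was therefore -2.12 ± 0.11 on pRho (SE; edgeR adjusted p = 9.57e-17), the largest difference between new bases there, and -0.07 ± 0.11 on pCrx.

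At chr15:66793972-66794071 all 3 changes rose on both promoters. The parent was the weakest of the 100 on pRho, at -2.63, -2.64 and -2.78. G (A35C) gave 1.74, 1.60 and 1.75, C (A35G) 1.63, 1.22 and 1.90, and A (A35T) 1.21, 1.70 and 1.33, with gains of 3.25-, 2.95- and 2.64-fold. On pCrx C and A rose 3.23- and 3.22-fold and G 1.83-fold; G lay 0.82 ± 0.22 below C there (SE; edgeR adjusted p = 0.00459), but 0.56 ± 0.46 below with barcodes as units (adjusted p = 0.54 with limma). The gain of G did not pass with barcodes as units on either promoter. The elements of this window changed at places 1 and 13, which lie outside the core and carry other barcodes, averaged -1.66 on pRho, 1.02 above the parent, so the gains were smaller when set against those elements.

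A like comparison was made for all windows, after parents lying apart had been seen. On pRho the parent lay within 0.5 of the mean of its elements changed at places 1 and 13 in 93 of 100 windows, and over 1 from it in 2. On pCrx it did so in 88 windows and lay over 1 from it in 3. Against these elements in place of the parent, the mean effects on pRho were -0.29 for A and -0.17 for both C and G, and on pCrx -0.26 for A, -0.35 for C and -0.15 for G. The pCrx means were thus nearer to 0 for each new base, and the order of the bases was the same.

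At chr13:104839111-104839210, C (A84G) rose on both promoters, with pRho effects of 1.41, 1.22 and 1.44 and pCrx effects of 1.83, 2.19 and 2.64. The fitted gain on pCrx was 2.22 ± 0.14 (SE; edgeR adjusted p = 9.28e-13), or 4.67-fold. A (A84T) rose 4.03-fold on pCrx but 1.39-fold on pRho, a promoter difference of 1.54 ± 0.18 (SE; edgeR adjusted p = 1.57e-09). G (A84C) gave 0.81 ± 0.16 on pCrx and -0.08 ± 0.13 on pRho (SE), and lay 1.44 ± 0.12 below C on pRho and 1.42 ± 0.14 below it on pCrx (SE). This parent lay above its elements changed at places 1 and 13, by 0.75 on pRho and 1.01 on pCrx.

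The window at chr6:31242227-31242326 had the widest gap between parent and flanking changes, 1.27 below on pRho and 1.63 below on pCrx. Its change to C (T76C) gave 0.83, 1.02 and 0.78 on pRho, and G (T76G) gave -0.88, -0.48 and -0.80. G lay 1.59 ± 0.14 below C on pRho (SE; edgeR adjusted p = 6.35e-11), a comparison that leaves out the parent, but with barcodes as units this became 1.25 ± 0.39 below (adjusted p = 0.0596 with limma). The effect of G against the parent was -0.71 ± 0.14 (SE) in the replicate fit and 0.095 ± 0.45 with barcodes as units, so its direction depended on how barcodes were weighted.

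The effect of a change often depended on the promoter. Of the 300 changes, 44 had a higher effect on pCrx than on pRho and 83 a lower one (edgeR interaction, adjusted over all changed elements), where 15.1% and 23.7% of all changed elements did so. Without replicate 3 the higher calls numbered 29. By new base, the higher and lower counts were 20 and 29 for A, 13 and 34 for C, and 11 and 20 for G. The mean promoter difference was -0.09 for A, -0.29 for C and -0.09 for G. The lower calls on pCrx thus exceeded the library's share for C, and lay nearer to it for A and G.

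Of the 151 changes that fell on pRho, 99 also fell on pCrx, which is 99 of the 153 that fell there, and 16 changes rose on both. Over all changed elements, 28.7% fell on both promoters and 5.28% rose on both. Calls in opposite directions were rarer: 14 changes rose on pRho and fell on pCrx, and 3 fell on pRho and rose on pCrx, where 3.44% and 1.22% of all changed elements did so. These shares of joint calls are all near those of the library. Of the 14, 10 were changes to C, 2 to A and 2 to G. The largest promoter difference was the change to C (A73G) at chr13:49314178-49314277. This window has a second TAATCC beside the core, as some other windows do. Its pRho effects were 0.46, 0.36 and 0.73 and its pCrx effects -1.88, -1.84 and -1.39. The difference was -2.24 ± 0.17 (SE; edgeR adjusted p = 1.21e-14), and -2.23 with barcodes as units. On pRho the parent was near the typical element, at 0.14, and on pCrx at 1.45. The parent minus its elements changed at places 1 and 13 was 0.64 on pCrx and -0.06 on pRho. Set against those elements, the fall on pCrx and the promoter difference were therefore smaller. A in the same window gave -0.04 ± 0.10 on pRho and -1.27 ± 0.13 on pCrx, and G gave -0.02 ± 0.10 and -0.67 ± 0.14 (SE), so the rise on pRho was seen with C and not with A or G.

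The same pattern stood at chr2:25833237-25833336, where C (A53G) gave 1.12, 0.57 and 1.24 on pRho and -0.52, -0.68 and -0.42 on pCrx. The promoter difference was -1.52 ± 0.19 (SE; edgeR adjusted p = 5.22e-09). G gave -0.02 ± 0.11 on pRho and -0.38 ± 0.13 on pCrx, and A gave 0.18 ± 0.12 and -0.42 ± 0.14 (SE). In this window G minus C differed between promoters by 1.16 ± 0.18 (SE; edgeR adjusted p = 4.28e-06). With barcodes as units the fall of C on pCrx had an adjusted p of 0.0509 with limma, and the rise on pRho one of 0.000206.

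Within the core, changes of the fourth base had smaller effects than changes of either A of TAAT, and effects close to those of changes of its first T. The mean effect over windows at place 5 was -0.22 ± 0.03 on pRho and -0.37 ± 0.02 on pCrx (SD, n = 3 replicates). At place 2, the first T, it was -0.24 ± 0.02 and -0.40 ± 0.03, at place 3 -0.38 ± 0.03 and -0.48 ± 0.04, and at place 4 -0.38 ± 0.04 and -0.51 ± 0.06 (SD). Tested on summed counts per window, place 5 lay above place 3 in 53 windows and below it in 9 on pRho, and above place 4 in 58 and below it in 14. Over 2323 comparisons of the fourth base with other places of monomer and dimer windows, 29.8% were higher and 36.3% lower on pRho. That reference includes places outside the core, where place 5 was more often the lower one. It is therefore not a like reference for places within the core. On pCrx, place 5 lay above place 3 in 30 windows and below it in 5, and above place 4 in 34 and below it in 9, against 22.4% higher and 32.3% lower. Against place 2 the calls were 30 above and 17 below on pRho, and 15 and 14 on pCrx. The mean of place 5 minus place 2 was 0.03 ± 0.02 on either promoter (SD, n = 3 replicates; exact two-sided sign-flip p = 0.25 for each). Without replicate 1, place 5 lay above place 2 in 19 windows on pRho and in 9 on pCrx, and below it in 7 on pCrx. The pCrx calls against place 3 also moved, to 17 above and 1 below without replicate 1 and to 15 and 2 without replicate 2.

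Against the CC that follows TAAT, the fourth base had close mean effects on pRho and deeper ones on pCrx. On pRho the mean effects were -0.22 at place 6 and -0.20 at place 7, and place 5 lay above and below place 6 in 27 and 22 windows and above and below place 7 in 28 and 28. On pCrx they were -0.29 and -0.23, and place 5 lay above place 6 in 9 windows and below it in 21, and above place 7 in 11 and below it in 35. In all 3 pCrx replicates the fourth base had the deeper mean, by 0.08, 0.07 and 0.10 against place 6 and by 0.13, 0.14 and 0.15 against place 7. The promoter difference was -0.09 for place 5 minus place 6 and -0.12 for place 5 minus place 7 (exact two-sided permutation p = 0.1 for each, the smallest that 3 against 3 replicates allow). Fewer windows had place 5 above when a replicate was left out, 5 against place 6 without replicate 1, and 7 and 4 against place 7 without replicates 1 and 2. Place 8 was covered by 57 changes in 56 windows, place 7 by 206 changes and place 4 by 292, since some changes there belong to other series or are absent. The places outside the core (1 and 8 to 13) had mean effects of -0.07 to 0.02 on pRho, and of -0.14 to -0.08 on pCrx, and place 5 lay below each of them in more windows than above it, among the 56 windows covered for place 8 and all 100 for the others.

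Mean effects were deeper in windows whose surrounding element was more active. Windows were divided into 50 more active and 50 less active ones, after the data had been seen, by the mean activity of their elements changed at places 1 and 13, whose barcodes differ from those of the fourth-base changes and the parent. In the more active 50 windows on pCrx, the mean effects were -0.73 for A, -0.90 for C and -0.45 for G, which correspond to 60.3%, 53.5% and 73.4% of the parent's activity, and 117 of 150 changes fell and 3 rose. In the less active 50, they were -0.03, -0.03 and -0.08, and 36 fell and 25 rose. On pRho the more active windows gave -0.51 for A, -0.56 for C and -0.28 for G, with 105 falls and 3 rises. The less active ones gave -0.08, 0.20 and -0.08, with 46 falls and 46 rises. On pRho, 23 of the 25 rises of C were thus in the less active windows, and in the more active ones C and A were close and G was the mildest, as on pCrx. The SD over 150 changes on pRho was 0.61 in the less active windows and 0.40 in the more active ones. On pCrx these SDs were 0.52 and 0.54. The small pRho means of the less active windows thus covered falls and rises alike. This division is a description, with no test. The shares of falls and rises over all changed elements, divided by activity in the same way, were not counted. Whether the pattern is particular to the fourth base was therefore not tested.

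Where another site lay outside the window, the mean effect of each new base was higher on both promoters. In 36 windows the element held another TAATCC or TAATCT or TAAGCC on either strand wholly outside the window, and in 64 it did not. In 6 windows such a site straddles the window's edge; 5 of these, chr13:49314178-49314277 among them, are counted with the 64. At least 1 of these 3 sequences occurs in 92.3% of all unmodified elements of the library, TAATCC itself in 63.7%. With another site wholly outside, the pRho means were -0.18 for A, 0.08 for C and -0.13 for G; without one they were -0.36, -0.32 and -0.20. On pCrx the means were -0.27, -0.38 and -0.19 with another site and -0.44, -0.52 and -0.31 without one. A match of this kind is a description of the letters and no evidence of a bound site, and the number of sites moves with other features of the element, whose part was not tested.

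The base before the core was C in 60 windows, T in 30, A in 9 and G in 1. On pCrx the mean effects for A, C and G as new bases were -0.47, -0.56 and -0.31 in windows with C before the core and -0.30, -0.36 and -0.19 in those with T. In the 9 windows with A before the core they were -0.07, -0.23 and -0.23, so there A had the mildest mean. After the core, C stood in 49 windows and T in 50. With C after the core the pCrx means were -0.46, -0.57 and -0.32, and with T -0.31, -0.37 and -0.21. On pRho the change to C averaged -0.30 with C after the core and -0.07 with T. With C or T before the core, and with C or T after it, C had the deepest and G the mildest mean on pCrx. These groups were formed after the data had been seen, and their differences were not tested.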

How the data were processed

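Barcode reads of 12 libraries (3 replicates of DNA and cDNA for each of 2 promoters) were analysed. The authors deposited raw read counts per barcode and log2 expression values per element, and a table of designed sequences; for the counting software the sources used here give no name. Element names use mm9, per the submitters' processing notes. No unique molecular identifiers are mentioned, so reads of the same molecule were not told apart. The edgeR errors rest on the spread of summed reads over 3 replicates. Counts were summed over barcodes, elements needed 10 DNA reads in each DNA library, and effects (allele by cDNA against DNA) were fitted with edgeR 4.0.16 in R 4.3.3 with TMM scaling; adjusted p-values are Benjamini-Hochberg. Barcodes as units (log2 ratios with 0.5 added to counts) and the authors' log2 values were fitted with limma 3.58.1, and DESeq2 1.42.0 was an alternative. The edgeR tests of effects, of differences between new bases and places and of promoter differences were tested on simulated data, as was the barcode fit. The other fits were not, and the simulated counts held no differences between barcodes.

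The members, lists and tests were chosen with earlier results of these data known. Named changes are, per promoter, the 6 largest falls, the 4 largest rises, the 2 largest falls per new base and the 3 windows with the largest difference between new bases, plus the 4 largest promoter differences, each past the threshold and of the same sign in all replicates; the part of the rule for windows with G at the fourth base had no window. Changes named outside this rule share a window with one that it names, except where said. In 2 windows the 6 changes were counted and neither named nor printed. Per the labels' protocols, DNA and RNA came from the same pools, so replicate numbers pair the libraries, although deviations of same-numbered libraries correlated only between -0.04 and 0.05. The elements were not assigned to genes, since the annotation at hand is of another build.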

Additional observations from a re-analysis of the deposited data

Results flagged for a closer look

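Among the named changes, 26 had effects that differed between the promoters by the edgeR interaction test over 3 replicates per promoter (adjusted over all 13717 changed elements), and each is given here as the effect on pCrx minus that on pRho. In 4 windows whose falls were deeper on pRho, the values were 0.55 for C and 0.52 for A at chr2:113883327-113883426, and 1.49 for A, 1.08 for C and 0.99 for G at chr16:64873307-64873406. They were 0.96 for A at chr14:18585162-18585261 and 0.94 for G at chr11:120353660-120353759.

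Falls deeper on pCrx gave -0.46 for C and -0.75 for A at chr8:12768382-12768481, and -0.96 for C and -0.75 for G at chr19:41732010-41732109. They gave -1.12 for C and -0.81 for A at chr12:87772778-87772877, -1.25 for C and -0.96 for G at chr2:25811052-25811151, and -1.35 for C and -0.86 for A at chr7:148783037-148783136. At chr15:103164816-103164915 the value for C was -0.94.

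Of the changes that rose on 1 promoter or both, the values were -2.10 for C at chr7:73255703-73255802, where A gave -0.89, and -0.83 for G at chr15:66793972-66794071. At chr13:104839111-104839210 they were 0.86 for C, 1.54 for A and 0.88 for G. The changes to C that rose on pRho and fell on pCrx gave -2.24 at chr13:49314178-49314277 and -1.52 at chr2:25833237-25833336.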

How the results depend on the processing

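Under total-count scaling, RLE scaling, DESeq2, other count minimums, without the highest barcode and on the authors' values, no named effect past the threshold turned its direction, and the counts of falls and rises stayed within 1.5 times. Counts were at least 43 per library. Taking barcodes as units moved 20 of 26 counts and means and lost 11 named calls. It gave 83 falls with 18 rises on pRho, and 98 with 11 on pCrx. On pRho, G was above and below A in 5 and 0 windows and above and below C in 11 and 4, and C above and below A in 7 and 2. On pCrx the same counts were 10 and 1, 13 and 1, and 0 and 3. Promoter differences numbered 15 higher and 38 lower, and those of C minus A 0 higher and 4 lower. The pRho effect of G at chr6:31242227-31242326 turned to 0.095; the cause was not tested. Medians over windows on pRho were -0.23 for C and -0.20 for G. Against elements changed at places 1 and 13, pCrx means were -0.26 for A, -0.35 for C and -0.15 for G.

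The fit with the replicate number as a block (paired libraries) gave 154 falls with 50 rises on pRho, 156 with 28 on pCrx, 45 higher and 83 lower promoter differences, and no count moved by over 1.5 times. Of the named effects it changed the call of G on pRho at chr12:87772778-87772877 (-0.22) and on pRho (-0.20) and pCrx (-0.26) at chr7:148783037-148783136, each of which then passed.

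Leaving out each replicate in turn leaves 2 per group. Rises on pCrx then numbered 17 to 22, and higher promoter differences 29 to 33. G was above A in 23 to 29 and below it in 6 to 10 windows on pRho, and below A in 4 to 7 and below C in 4 to 9 on pCrx. C was above A in 2 to 3 and below it in 7 to 7 on pCrx; C minus A was higher on pCrx than on pRho in 2 to 5 and lower in 11 to 14. Place 5 was above place 2 in 19 to 24 windows on pRho and in 9 to 15 on pCrx, and below it in 7 to 10 on pCrx. On pCrx it was above place 3 in 15 to 27 and below it in 1 to 5, above place 6 in 5 to 9 and above place 7 in 4 to 8.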

Other observations

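Outside the rule for named changes, and chosen after their values were seen, other windows also gave opposite calls on the promoters. At chr11:88917445-88917544 all 3 changes rose on pRho and fell on pCrx: A gave 0.48 and -0.57, C gave 0.58 and -0.58, and G gave 0.56 and -0.42 on pRho and pCrx (edgeR). With barcodes as units none of the 3 rises passed, and the falls of A and C did. At chr9:47954935-47955034 A gave 0.33 and -0.56 and C 0.58 and -0.52. With barcodes as units the values of C passed in both directions. The 3 changes that fell on pRho and rose on pCrx were the change to A at chr11:103813775-103813874 (-0.77 and 0.46), the change to C at chr7:128103854-128103953 (-0.51 and 0.48), and the change to G at chr8:125874065-125874164 (-0.43 and 0.62). With barcodes as units none of these 3 rises on pCrx passed, and of the falls only that of A did.

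The strand of the window went with the number of rises on pCrx. Of 132 changes in windows read on the forward strand of the element, 64 fell and 2 rose on pCrx. In windows read on the reverse strand, 89 of 168 fell and 26 rose. With barcodes as units the rises were 0 and 11. In the edgeR fit the pCrx rises of both strands together came from 14 windows, in 6 of which all 3 changes rose. The 3 changes of a window share a parent, so these counts are not of separate observations. On pRho 17 changes rose in forward and 32 in reverse windows, and the mean effect of a change to C was -0.30 in the former and -0.08 in the latter. The difference between strands was not tested, and the strand of the window was set by the genomic sequence.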
